A study of Mus musculus with 3 samples.

Results

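Chromatin accessibility was described at 10 genes of the TCF/LEF family and the beta-catenin pathway core, of 21851 protein-coding genes in the annotation. They were chosen by name and not by any measured value, though with earlier results of these data known. They comprised the repressor-type factors Tcf7l1 and Tcf7l2, the activator-type factors Tcf7 and Lef1, the co-activator Ctnnb1 (beta-catenin), the degradation complex genes Axin1, Axin2, Apc and Gsk3b, and the corepressor gene Tle4. Each gene was followed from 20 kb before its outermost start site to its end in GRCm38, and the question was where its accessible sites lay in hair follicle stem cells (HFSCs) with and without Msx2.

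In the Wnt pathway, AXIN1, AXIN2, APC and the kinase GSK3B hold beta-catenin in a complex that marks it for degradation. A Wnt signal stalls this complex, and beta-catenin then joins DNA-bound TCF/LEF factors in the nucleus. Without it these factors recruit TLE corepressors and keep their targets off. In the resting follicle TCF7L1 and TCF7L2 are known mainly as repressors that hold bulge stem cells quiescent, while LEF1 and TCF7 are known as activators that accompany beta-catenin when the hair germ is switched on. Lef1 and Tcf7 are also used by T lymphocytes, and Lef1 by dermal papilla cells.

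Omni-ATAC-seq marks open DNA by letting Tn5 transposase insert adapters into it, and was performed on HFSCs sorted as CD34+, CD49f+ and Sca-1− from dorsal skin of untreated mice aged 6 months in telogen, when the follicle rests between growth phases. There were 3 libraries, given in this order throughout: 1 from wild-type C57BL/6J mice at the same hair cycle stage (Msx2-WT) and 2 from Msx2-KO mice, which carry a germline insertion in both copies of Msx2 and so lack this homeobox factor in every tissue. The labels do not say how many animals, or of which sex, went into a library. By the labels the Msx2-WT library and the pair of Msx2-KO libraries came from different batches. Batch and genotype cannot be told apart here, and the genotypes were not tested against each other. The spread between both Msx2-KO libraries, which may be technical, is the only replicate error.

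The peak lists give no read totals. The commonest local background at the summits, used as a measure of depth, was 1.74 tags in Msx2-WT and 0.476 and 0.790 in the Msx2-KO replicates. The libraries held 33654, 19450 and 41091 summits past a −log10 q of 2.0, and the smallest such summits held 9, 5 and 6 tags, respectively. A tag is an aligned read that the peak caller counts at a summit. Of 9 HFSC marker genes, 6, 6 and 8 had a promoter peak, with Tbx1 and Lgr5 in both Msx2-KO libraries but not Msx2-WT, Cd34 (a marker of the sort) and Krt15 in every library but Msx2-KO replicate 1, and Nfatc1 in none. T lymphocyte and leukocyte markers had a promoter peak at 0 of 7 genes in every library, and the endothelial markers at 0, 0 and 1 of 3. Dermal markers had one at 2, 1 and 3 of 7 genes, melanocyte markers at 3, 2 and 3 of 4 (Tyr at none, Dct and Pmel in all 3 libraries), and epidermal markers at 2, 0 and 0 of 4 (Krt10, and Ly6a, which encodes the Sca-1 that the sort excluded). Summed over its open promoters, the accessibility of the HFSC list was 4.97, 5 and 6.69 times that of the library's median shared promoter. That of the dermal list was 1.07, 0.692 and 1.28, that of the melanocyte list 2.45, 2.46 and 2.21, and that of the epidermal list 0.759, 0 and 0. The lists hold 9, 7, 4 and 4 genes and the sums grow with list length, so they do not rank one list against another. The part of the cell types other than HFSCs in the results was not tested.

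Sequence at the accessible sites of the TCF/LEF genes and of Axin2 is shown first, because the comparison of both types of factor rests on these sites and Axin2 is a textbook target of the factors. A site is called open in a library that had a peak there past the threshold. The 201 bases around the strongest start-site summit of each gene are printed on the gene's own strand from the RefSeq GRCm38 assembly. Capitals mark every match to the TCF/LEF letters CTTTGAT or CTTTGAA, the homeobox letters CAATTA and the AP-1 letters TGANTCA, each searched on both strands.

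Tcf7l1 start, open in all 3 libraries (chr6:72789378-72789578, minus strand): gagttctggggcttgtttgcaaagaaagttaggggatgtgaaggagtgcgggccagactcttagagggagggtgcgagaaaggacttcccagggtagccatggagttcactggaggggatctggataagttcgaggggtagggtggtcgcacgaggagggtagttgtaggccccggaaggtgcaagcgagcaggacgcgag
Tcf7l2 start, open in all 3 libraries (chr19:55741601-55741801, plus strand): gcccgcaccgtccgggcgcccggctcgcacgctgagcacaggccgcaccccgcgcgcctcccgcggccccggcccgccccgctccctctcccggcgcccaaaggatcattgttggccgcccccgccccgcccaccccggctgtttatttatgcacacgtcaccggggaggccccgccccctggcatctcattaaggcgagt
Tcf7 start, no peak in Msx2-KO replicate 1 (chr11:52283304-52283504, minus strand): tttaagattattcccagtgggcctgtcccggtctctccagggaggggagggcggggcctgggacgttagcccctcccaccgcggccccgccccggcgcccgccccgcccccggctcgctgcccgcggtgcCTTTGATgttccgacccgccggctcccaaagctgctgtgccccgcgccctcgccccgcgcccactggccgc
Lef1 alternative start, open in Msx2-KO replicate 2 (chr3:131112189-131112389, plus strand): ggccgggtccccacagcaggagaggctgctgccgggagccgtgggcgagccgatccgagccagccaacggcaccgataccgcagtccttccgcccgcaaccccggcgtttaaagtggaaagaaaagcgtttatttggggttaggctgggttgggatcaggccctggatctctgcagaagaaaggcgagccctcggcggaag
Axin2 start, open in all 3 libraries (chr11:108920272-108920472, plus strand): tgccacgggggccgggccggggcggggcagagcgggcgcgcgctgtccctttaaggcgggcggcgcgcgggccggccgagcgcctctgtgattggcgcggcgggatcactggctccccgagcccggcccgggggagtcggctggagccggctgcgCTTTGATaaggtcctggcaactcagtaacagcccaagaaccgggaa

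The TCF/LEF letters CTTTGAT stood once in the Tcf7 window and once in the Axin2 window. The windows of Tcf7l1, Tcf7l2 and Lef1 held none of the letters searched. Windows of 121 bases around 7 intronic and upstream summits show the other sites the results turn on. They comprise the only member region with AP-1 letters, the strongest intronic sites of Tcf7l1 and Tcf7l2, sites held by the Msx2-KO pair or by Msx2-WT only, the upstream site of Ctnnb1, and the only intronic site with TCF/LEF letters.

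Tcf7l1 −5.92 kb, no peak in Msx2-KO replicate 1 (chr6:72795109-72795229, minus strand): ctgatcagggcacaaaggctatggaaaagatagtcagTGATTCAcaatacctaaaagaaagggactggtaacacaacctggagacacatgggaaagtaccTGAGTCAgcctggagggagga
Tcf7l1 +19.4 kb, open in all 3 libraries (chr6:72769835-72769955, minus strand): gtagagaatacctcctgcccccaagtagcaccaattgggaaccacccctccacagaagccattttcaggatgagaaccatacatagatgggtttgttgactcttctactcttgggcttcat
Tcf7l1 +144 kb, open in both Msx2-KO libraries (chr6:72645429-72645549, minus strand): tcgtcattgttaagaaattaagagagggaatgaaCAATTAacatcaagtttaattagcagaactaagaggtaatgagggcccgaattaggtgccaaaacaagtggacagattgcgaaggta
Tcf7l2 +38.1 kb, open in all 3 libraries (chr19:55779835-55779955, plus strand): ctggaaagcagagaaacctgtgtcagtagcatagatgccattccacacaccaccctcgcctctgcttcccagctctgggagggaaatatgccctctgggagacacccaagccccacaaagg
Tcf7l2 +12.6 kb, open in Msx2-WT alone (chr19:55754397-55754517, plus strand): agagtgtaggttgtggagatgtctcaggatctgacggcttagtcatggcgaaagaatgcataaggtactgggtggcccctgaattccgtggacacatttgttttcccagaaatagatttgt
Ctnnb1 −14.1 kb, open in all 3 libraries (chr9:120919260-120919380, plus strand): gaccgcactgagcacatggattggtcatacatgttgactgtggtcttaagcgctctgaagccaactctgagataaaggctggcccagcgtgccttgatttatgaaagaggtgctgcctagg
Tle4 +27.9 kb, open in Msx2-KO replicate 1 alone (chr19:14570096-14570216, minus strand): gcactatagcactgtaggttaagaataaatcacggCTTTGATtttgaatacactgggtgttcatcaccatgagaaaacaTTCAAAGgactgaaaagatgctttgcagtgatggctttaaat

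The windows at Tcf7l1 +19.4 kb, Tcf7l2 +38.1 kb, Tcf7l2 +12.6 kb and Ctnnb1 −14.1 kb held no match. The site at Tcf7l1 +144 kb held 1 homeobox match, that at Tcf7l1 −5.92 kb held 2 AP-1 matches and that at Tle4 +27.9 kb held 2 TCF/LEF matches.

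Nearly all promoters of the 10 members were open. A promoter peak, a summit within 1500 bases of a start site, was found for 9 of the 10 genes in Msx2-WT, against 8 and 10 in the Msx2-KO replicates, where 47.1%, 37.9% and 53.7% of all protein-coding genes had one. The 8 genes open in all 3 libraries were Tcf7l1, Tcf7l2, Ctnnb1, Axin1, Axin2, Apc, Gsk3b and Tle4, a state shared by 35.2% of all genes. The exceptions were both activator-type factors. Tcf7 lacked a promoter peak in Msx2-KO replicate 1 alone (9.64% of all genes did), whereas Lef1 had one in Msx2-KO replicate 2 alone (6.5% of all genes). No member had a promoter peak in the Msx2-KO pair without one in Msx2-WT (2.32% of all genes), and none had one in Msx2-WT alone (2.11%). Thus no member's promoter state separated the genotypes.

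For comparison between libraries, tags were divided by the library background and then by the library's median over a common set. That set was the 7701 promoters open in all 3 libraries for start sites, and the 6232 other regions open in all 3 for introns and upstream sites. The resulting value is called the level, and 1 is the library's typical shared site. The smallest summits used correspond to levels of 0.310, 0.385 and 0.207 at promoters and of 0.50, 0.50 and 0.30 elsewhere in Msx2-WT, Msx2-KO replicate 1 and Msx2-KO replicate 2. No summit below this level passed the threshold in that library, though weaker ones were listed. Not every summit above this level passed. The medians themselves stood higher over background in the Msx2-KO replicates than in Msx2-WT, by 0.71 and 1.14 at promoters and by 1.02 and 1.29 elsewhere on the log2 scale. A higher or lower level is therefore relative to these shifts.

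**Figure D1:**
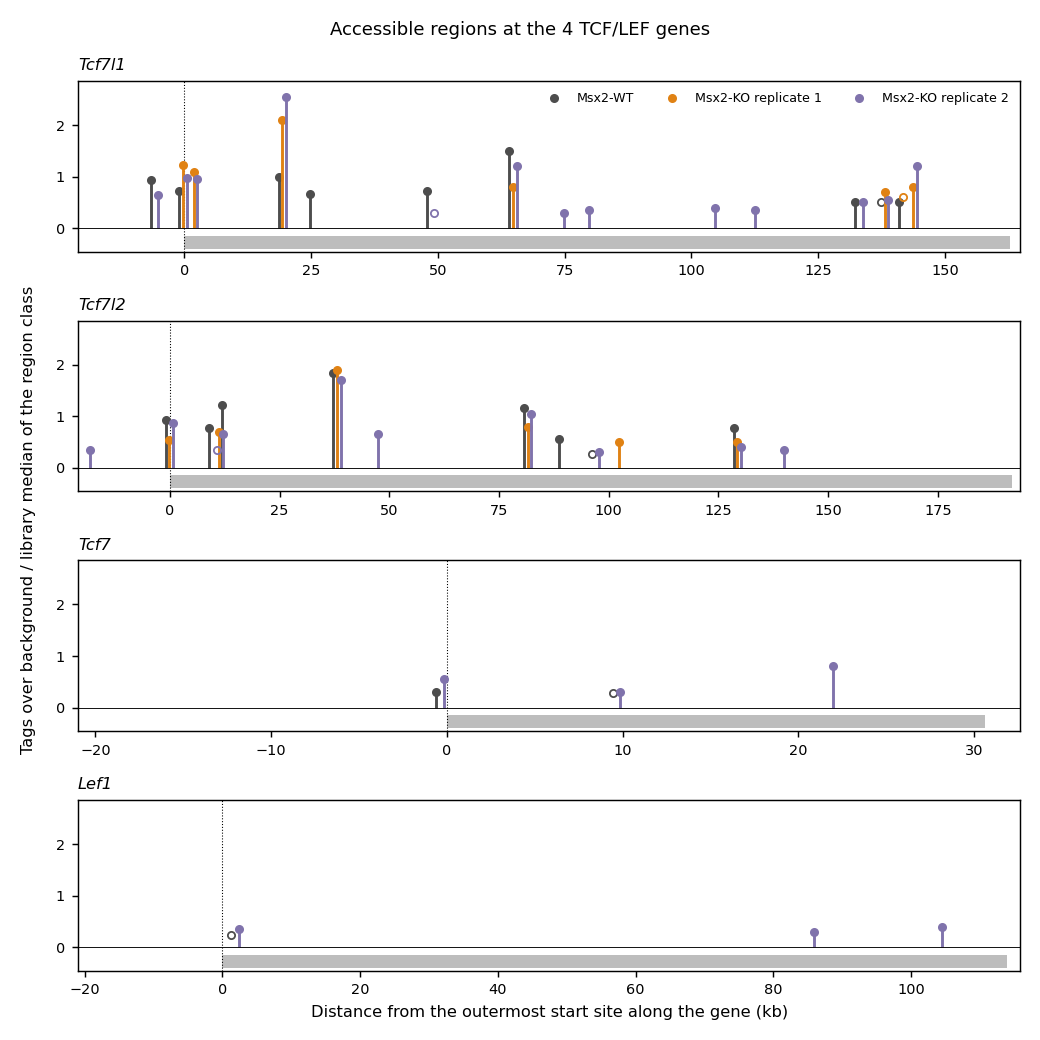
Accessible regions along Tcf7l1, Tcf7l2, Tcf7 and Lef1. The x axis gives the distance from the outermost start site in kb with the gene body as a grey bar, and the y axis the level (tags over the library background, divided by the library median of the region class). Filled points are peaks past the threshold, open points are summits listed below it, and the 3 libraries are set side by side at each site. Tcf7l1 and Tcf7l2 hold 15 and 13 regions, Tcf7 and Lef1 hold 3 each.

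Tcf7l1, encoding the main repressor-type factor of the bulge, spans chr6:72626378-72789254 on the minus strand and had the most sites of the 10 genes, 15 regions. Its promoter summit held 21 tags in Msx2-WT, against 16 and 28 in the Msx2-KO replicates, with 95% Poisson intervals of 13.0 to 32.1, 9.15 to 26.0 and 18.6 to 40.5. The levels were 0.724, 1.23 and 0.966, so both Msx2-KO libraries lay above Msx2-WT, by 0.77 and 0.42 on the log2 scale. They differed from each other by 0.35, and by the deposited fold Msx2-WT lay between them, at 5.88 against 5.77 and 6.50. Over background alone both again lay above Msx2-WT, at 33.6 and 35.4 against 12.1. All 3 counting intervals overlapped, but they are of raw tags from libraries of unlike depth and do not compare the levels.

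In tags, the strongest site of Tcf7l1 was intronic in each library. The site at +19.4 kb in intron 3 (chr6:72768773-72770566) held 18, 21 and 51 tags in Msx2-WT, Msx2-KO replicate 1 and Msx2-KO replicate 2. It was the strongest site of the gene in both Msx2-KO libraries, and its levels of 1, 2.1 and 2.55 were higher there than in Msx2-WT. Another intron 3 site at +64.8 kb, the strongest of the gene in Msx2-WT, held 27, 8 and 24 tags, at levels of 1.5, 0.8 and 1.2. These were lower in both Msx2-KO libraries, but tags over background alone were higher there, at 15.5 in Msx2-WT against 16.8 and 30.4.

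Of the remaining Tcf7l1 sites, 3 passed the threshold in the Msx2-KO pair and not in Msx2-WT. At +1.81 kb (chr6:72787250-72788176, intron 3), Msx2-KO replicate 1 held 11 tags and Msx2-KO replicate 2 held 19, at levels of 1.1 and 0.95, and Msx2-WT listed no summit. These levels were above the 0.50 of the smallest Msx2-WT peaks outside promoters, a level that did not always pass the threshold. At +144 kb in intron 4 the 2 libraries held 8 and 24 tags, at levels of 0.8 and 1.2, again with no summit listed in Msx2-WT. At +138 kb they held 7 and 11 tags, but Msx2-WT listed 9 tags there just below the threshold, with a −log10 q of 1.97.

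A further 3 Tcf7l1 sites were peaks in Msx2-WT alone. They held 12 tags at +25.4 kb, 13 at +48.5 kb and 9 at +142 kb. Summits below the threshold were listed at +48.5 kb in Msx2-KO replicate 2 (6 tags) and at +142 kb in Msx2-KO replicate 1 (6 tags). Tcf7l1 thus held as many sites open in Msx2-WT alone as in the Msx2-KO pair alone. Another 4 sites, of 6 to 8 tags, were peaks in Msx2-KO replicate 2 alone, at levels of 0.30 to 0.40. These levels lay below the smallest peaks of the other 2 libraries. Over background alone the sites had 7.59 to 10.1, below the smallest peaks of Msx2-KO replicate 1 (10.5) but above those of Msx2-WT (5.18). The sites at −5.92 kb (17 and 13 tags) and +133 kb (9 and 10 tags) were peaks in Msx2-WT and Msx2-KO replicate 2.

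Tcf7l2, which encodes a factor that represses in the bulge and can also activate, spans chr19:55741820-55933654 and held 13 regions. Its promoter summit held 27 tags in Msx2-WT, against 7 and 25 in the Msx2-KO replicates, at levels of 0.931, 0.538 and 0.862. Msx2-WT and Msx2-KO replicate 2 were close, at a log2 difference of −0.11, while both Msx2-KO libraries differed by 0.68.

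The strongest site of Tcf7l2 was again intronic. At +38.1 kb in intron 3 (chr19:55779524-55780293) the libraries held 33, 19 and 34 tags. The levels were 1.83, 1.90 and 1.70, with Msx2-WT between the Msx2-KO libraries. Intron 4 held 2 more shared sites, at +81.5 kb with 21, 8 and 21 tags and at +129 kb with 14, 5 and 8 tags.

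A stretch of intron 3 of Tcf7l2 near +11 kb differed between libraries over a short distance. At +12.6 kb (chr19:55754311-55754660) Msx2-WT held 22 tags, a level of 1.22, and neither Msx2-KO library listed a summit. The same level would correspond to 12.2 and 24.4 tags in them. Over background alone the site stood nearer to their smallest peaks, at 12.7 against 10.5 and 7.59. At +11.2 kb (chr19:55752621-55753249) the reverse was found, with 7 and 13 tags in the Msx2-KO libraries at levels of 0.70 and 0.65 and no summit listed in Msx2-WT. At +9.76 kb Msx2-WT held 14 tags, and Msx2-KO replicate 2 listed 7 below the threshold. Msx2-WT alone also had a summit of 10 tags at +89.4 kb.

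Tcf7 (chr11:52252371-52283014, minus strand) encodes an activator-type factor also known from T lymphocytes, and held 3 regions. Its promoter summit, at −411 bases in Msx2-WT and −390 in Msx2-KO replicate 2, held 9 tags (4.12 to 17.1) and 16 tags (9.15 to 26.0). The levels of 0.310 and 0.552 were below the median promoter, and the Msx2-WT value was the smallest of any peak in that library. Msx2-KO replicate 1 listed no summit, and the level of its smallest promoter peaks, 0.385, lay between these levels. Both remaining sites were peaks in Msx2-KO replicate 2 alone, with 16 tags at +21.8 kb in intron 3 and 6 at +9.67 kb in intron 2. The first had a level of 0.80, which would correspond to 14.4 tags for Msx2-WT and 8 for Msx2-KO replicate 1, where no summit was listed.

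Lef1 (chr3:131110471-131224356) encodes the activator-type factor of the hair germ and matrix. No library had a summit past the threshold within 1500 bases of its outermost start. Its promoter peak in Msx2-KO replicate 2 lay at +1818 bases, near an annotated alternative start, and held 10 tags (4.80 to 18.4) at a level of 0.345. Msx2-WT listed 7 tags below the threshold at +1574 bases. The Msx2-KO replicate 2 level would correspond to 10 tags in Msx2-WT and 4.48 in Msx2-KO replicate 1, the latter below its smallest peak of 5 tags. Over background alone the peak had 12.7, above the smallest peaks of Msx2-WT (5.18) and of Msx2-KO replicate 1 (10.5). The other Lef1 sites, at +85.4 kb in intron 8 (6 tags) and +104 kb in intron 11 (8 tags), were also peaks in Msx2-KO replicate 2 alone. Their levels lay below the smallest peaks of both other libraries. Over background alone they had 7.59 and 10.1, above the smallest peaks of Msx2-WT but below those of Msx2-KO replicate 1. No site of either activator-type gene was shared by both Msx2-KO libraries.

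The repressor-type genes held more accessible sites per length than the activator-type genes in every library. Over 395 kb, Tcf7l1 and Tcf7l2 held 18 summits in Msx2-WT, against 12 and 23 in the Msx2-KO replicates, or 4.56, 3.04 and 5.83 summits per 100 kb. Over 185 kb, Tcf7 and Lef1 held 1, 0 and 6, or 0.542, 0 and 3.25 per 100 kb. The 95% Poisson intervals were 2.70 to 7.21 against 0.0137 to 3.02 for Msx2-WT, then 1.57 to 5.31 against 0 to 2.00, then 3.69 to 8.74 against 1.19 to 7.08 for the Msx2-KO replicates. They overlapped in each library. The median density over all genes was 2.07, 0.641 and 2.47. In lists cut to the same length of 19450 summits the repressor-type density was 3.04, 3.04 and 2.53 and the activator-type density 0, 0 and 1.08. The genes of a type are not replicates, and these values describe 2 genes against 2.

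**Figure D2:**
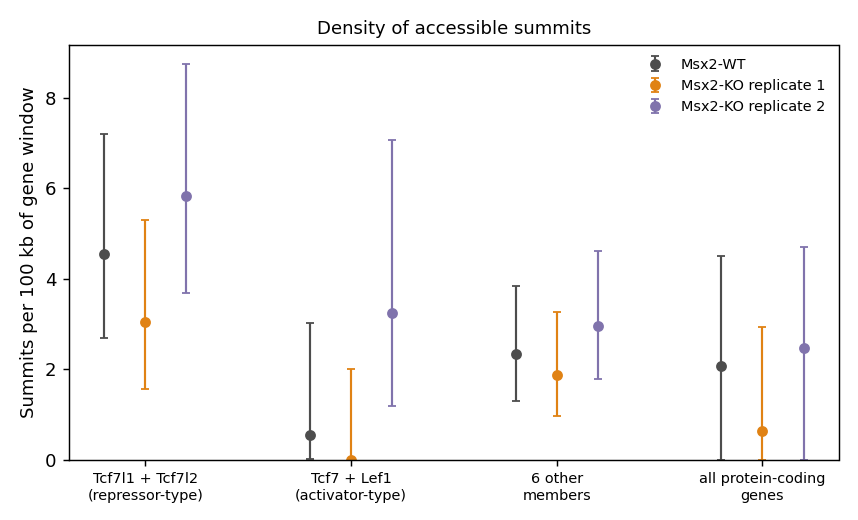
Summits per 100 kb of gene window (y axis) for the repressor-type genes, the activator-type genes, the 6 other members and all protein-coding genes, by library. Bars are 95% Poisson intervals for the members, and the quartiles over genes around the median for all protein-coding genes. The repressor-type values of 3.04 to 5.83 lie above the activator-type values of the same library.

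By single genes the order was less even. In Msx2-KO replicate 2 Tcf7 held 5.92 summits per 100 kb, above the 4.25 of Tcf7l2, because its 3 summits fell in a window of 50.6 kb. Tcf7l1 held 5.47, 3.28 and 7.66 per 100 kb, with the lowest at the 78.4th and the highest at the 87.4th percentile of all genes, and Lef1 held 0, 0 and 2.24. Ctnnb1 held 6.37, 4.25 and 6.37 per 100 kb. Gsk3b held 1.13 in each library.

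Ctnnb1 (chr9:120933400-120960507) encodes beta-catenin and held 2 regions, both open in all 3 libraries and none within the gene past its start. Its promoter held 26, 7 and 24 tags, at levels of 0.897, 0.538 and 0.828. The upstream site at −14.1 kb (chr9:120918677-120919508) held 44 tags in Msx2-WT, against 7 and 25 in the Msx2-KO replicates. Its levels of 2.44, 0.70 and 1.25 were lower in both Msx2-KO libraries, which themselves lay apart, but over background alone (25.3, 14.7 and 31.6) and by the deposited fold Msx2-WT lay between them.

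**Figure D3:**
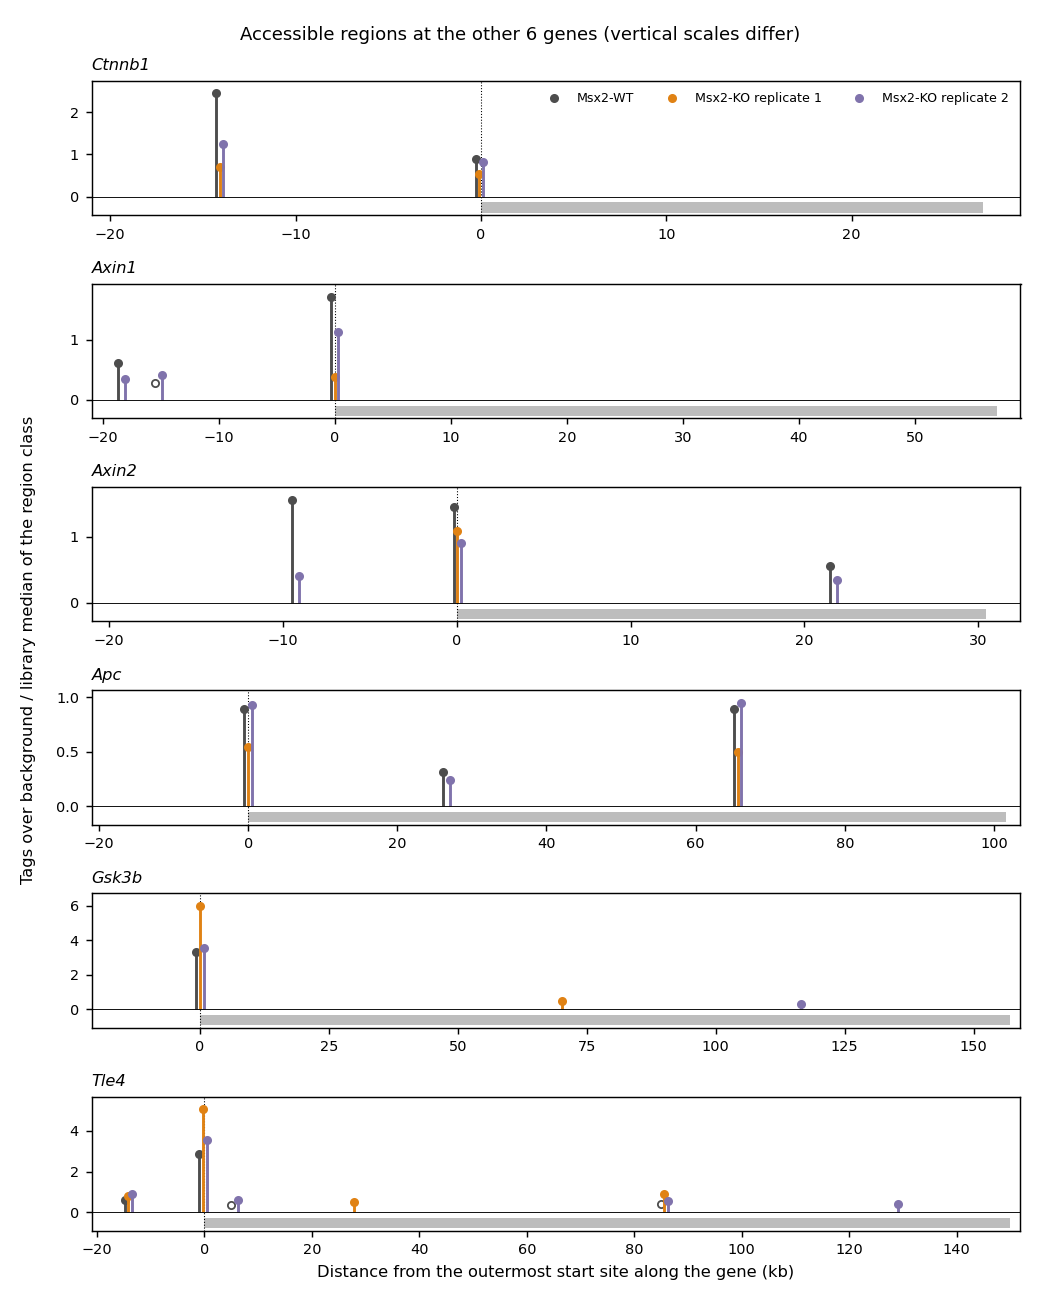
Accessible regions along Ctnnb1, Axin1, Axin2, Apc, Gsk3b and Tle4, drawn like the map of the TCF/LEF genes but with a vertical scale for each gene. The start sites of Gsk3b and Tle4 reach levels of 2.86 to 6, while the site at Ctnnb1 −14.1 kb and the promoters of Axin1 and Axin2 have their highest level in Msx2-WT, which over background alone does not hold for any of these sites.

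Axin1 (chr17:26138688-26195811) encodes the scaffold of the degradation complex. Its promoter held 50, 5 and 33 tags, with Poisson intervals of 37.1 to 65.9, 1.62 to 11.7 and 22.7 to 46.3. The levels were 1.72, 0.385 and 1.14, which put Axin1 at the 85.1th percentile of shared promoters in Msx2-WT and at the 2.05th and 58.5th in the Msx2-KO libraries. Both were below Msx2-WT, at log2 differences of −2.16 and −0.60, whereas over background alone Msx2-WT lay between them, at 28.8 against 10.5 and 41.8. The Msx2-KO libraries differed by 1.56, more than the 0.79 at the 90th percentile of all promoters and more than the step from Msx2-WT to Msx2-KO replicate 2. The other Axin1 sites were at −18.4 kb, inside the gene Tmem8, and at −15.2 kb, beside the start of the gene Mrpl28.

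Axin2 (chr11:108920349-108950783) encodes a feedback inhibitor that beta-catenin itself induces. Its promoter held 42 tags in Msx2-WT, against 14 and 26 in the Msx2-KO replicates. The levels of 1.45, 1.08 and 0.897 were lower in both Msx2-KO libraries, at log2 differences of −0.43 and −0.69, and those libraries differed by 0.26. Over background alone the order turned, at 24.2 in Msx2-WT against 29.4 and 32.9. The upstream region at −9.27 kb (chr11:108910435-108911299) held 28 tags in Msx2-WT and 8 in Msx2-KO replicate 2, at levels of 1.56 and 0.40, and no summit was listed in Msx2-KO replicate 1. The summits of the 2 libraries lay at different bases of this region. An exon 5 site at +21.7 kb held 10 and 7 tags in the same libraries, at levels of 0.556 and 0.35. At each of the 3 Axin2 sites the highest level was that of Msx2-WT. Over background alone this held only at −9.27 kb, with 16.1 against 10.1 in Msx2-KO replicate 2. The exon 5 site had 5.75 in Msx2-WT against 8.86 in Msx2-KO replicate 2.

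Apc, another scaffold of the complex, held 3 regions. Its promoter held 26, 7 and 27 tags, and its levels of 0.897, 0.538 and 0.931 placed Msx2-WT between the Msx2-KO libraries. A site in intron 7 at +65.7 kb was open in all 3 libraries with 16, 5 and 19 tags and the same order of levels. The site at +26.6 kb, at an alternative start, held 9 and 7 tags in Msx2-WT and Msx2-KO replicate 2.

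Gsk3b (chr16:38089001-38246084), the kinase gene, had the strongest promoter of the 10 genes, equalled by Tle4 in Msx2-KO replicate 2. It held 97, 78 and 103 tags, at levels of 3.34, 6.00 and 3.55, and lay above the 99.5th percentile of shared promoters in each library. Its remaining 2 sites, of 5 and 6 tags, were each found in 1 Msx2-KO library. Tle4 (chr19:14448150-14598051, minus strand), the corepressor gene, was nearly as strong, with 83, 66 and 103 tags at levels of 2.86, 5.08 and 3.55. For both genes Msx2-WT and Msx2-KO replicate 2 were closer to each other than to Msx2-KO replicate 1. Tle4 also had a shared upstream site at −14.2 kb, with 11, 8 and 18 tags. An intron 8 site at +85.6 kb was a peak in both Msx2-KO libraries (9 and 11 tags), where Msx2-WT listed 7 tags below the threshold.

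**Figure D4:**
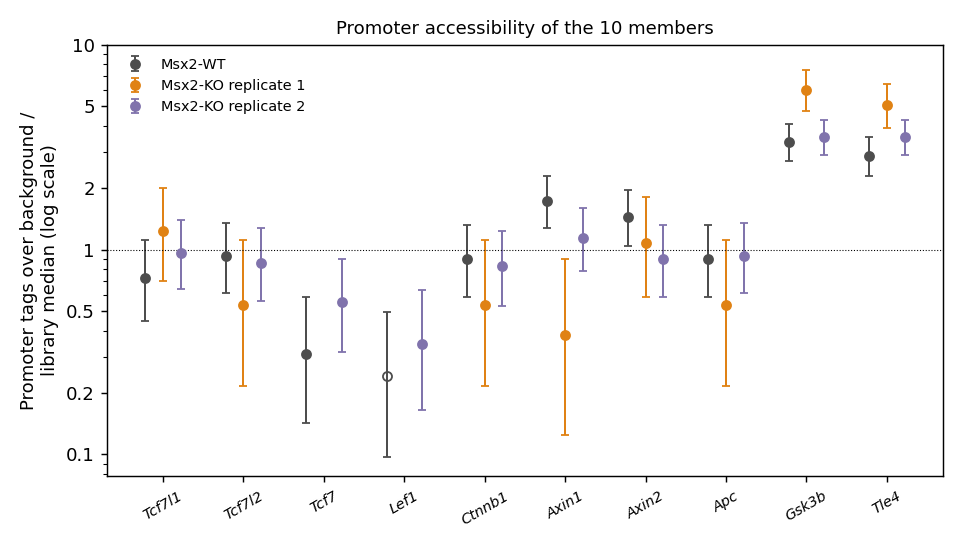
Promoter level of the 10 genes by library on a log axis, with 95% Poisson intervals as bars. The dotted line at 1 is the median promoter open in all 3 libraries, the open point is a summit listed below the threshold, and no point is drawn where none was listed. Gsk3b and Tle4 stand above the line in every library, and Tcf7 and Lef1 below it.

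Of the 8 promoters open in all 3 libraries, 4 had a lower level in both Msx2-KO libraries (Tcf7l2, Ctnnb1, Axin1 and Axin2), against 31.6% of all shared promoters. A higher level in both was found for 3 (Tcf7l1, Gsk3b and Tle4), against 45.2%, and Apc was mixed. The log2 difference of the Msx2-KO mean from Msx2-WT was −1.18 for Axin1 and ran from −0.55 to 0.60 for the other 7. It exceeded the difference between both Msx2-KO libraries for Tcf7l1, Axin2 and Tle4, of 0.60, −0.55 and 0.59, and did not for the other 5, where 58.5% of all shared promoters exceeded it. These 3 changes lay at the 77.3th, 14.3th and 77.0th percentiles of all shared promoters. The directions depend on the scaling, since the median promoter itself stood 16.7 times over background in Msx2-WT but 27.3 and 36.7 times in the Msx2-KO replicates. Over the background alone no member was lower in both Msx2-KO libraries (2.29% of all shared promoters) and 4 were higher (87.1%). By the deposited fold 6 were lower (33.2%) and none was higher (30.6%).

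Of the 8 other member regions open in all 3 libraries, 4 had a lower level in both Msx2-KO libraries (Tcf7l1 +64.8 kb, Tcf7l2 +81.5 kb and +129 kb, and Ctnnb1 −14.1 kb), where 40.6% of such regions genome-wide were lower. A higher level was found at 2 (Tcf7l1 +19.4 kb and Tle4 −14.2 kb), against 35.9%. Over the background alone none of the 8 was lower (4.03% genome-wide) and 7 were higher (87.3%), all but Ctnnb1 −14.1 kb. By the deposited fold 2 were lower (27.4%), both in Tcf7l2, and 2 were higher (43.5%). Tcf7l1 +19.4 kb and Tle4 −14.2 kb were higher in both Msx2-KO libraries by all 3 measures. No region was lower by all 3, which follows from the background measure, by which none was lower. The share of regions genome-wide that meet all 3 measures was not counted. Tle4 −14.2 kb held 11, 8 and 18 tags, with overlapping Poisson intervals of 5.49 to 19.7, 3.45 to 15.8 and 10.7 to 28.4. These intervals are of raw tags from libraries of unlike depth, so their overlap does not compare the levels.

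The 10 windows held 54 regions, of which 35 were intronic, 9 lay at a main start, 2 at an alternative start, 6 upstream, 1 in an exon and 1 at the start of another gene. Of the 9 start regions 8 were open in all 3 libraries, and of the 45 others 8 were. In all, 16 regions (29.6%) were open in every library, against 32.2% of regions in the windows of all genes. Both Msx2-KO libraries without Msx2-WT held 5 (9.26%, against 6.67%), and Msx2-WT alone held 6 (11.1%, against 17.5%). Msx2-WT and Msx2-KO replicate 2 shared 7 (13.0%, against 15.5%), and Msx2-WT and Msx2-KO replicate 1 shared none (against 0.67%). Msx2-KO replicate 2 alone held 17 (31.5%, against 25.2%) and Msx2-KO replicate 1 alone 3 (5.56%, against 2.14%). At 12 of the 17 regions of Msx2-KO replicate 2 the level lay below the smallest peaks of both other libraries. Over background alone these 12 had 7.59 to 10.1. That lay below the smallest peaks of Msx2-KO replicate 1 (10.5) but above those of Msx2-WT (5.18). Among the 12, Tcf7l2 +97.0 kb and Tcf7 +9.67 kb each had 5 tags listed below the threshold in Msx2-WT.

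**Figure D5:**
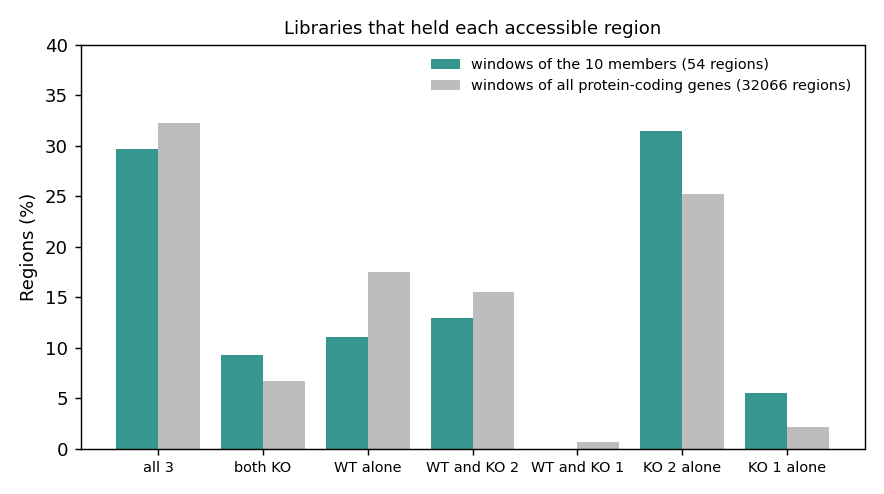
Share of regions (y axis, percent) by the libraries that held them, for the 54 regions in the windows of the 10 members and the 32066 in the windows of all protein-coding genes. WT is Msx2-WT, KO 1 and KO 2 are the Msx2-KO replicates. The members' shares differ by less than 7 percentage points from those of all genes for each combination.

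The regions whose peaks split by genotype lay at few members. All 6 that were open in Msx2-WT alone lay in Tcf7l1 and Tcf7l2, with 3 in each. Of the 5 open in both Msx2-KO libraries alone, 3 lay in Tcf7l1, 1 in Tcf7l2 and 1 in Tle4. A library of the other genotype listed a summit below the threshold at Tcf7l1 +48.5 kb, +138 kb and +142 kb, Tcf7l2 +9.76 kb and Tle4 +85.6 kb. The repressor-type genes held 28 of the 54 regions, of which 7 were open in every library, 6 in Msx2-WT alone and 4 in the Msx2-KO pair alone. Over the windows of all genes, 32.2%, 17.5% and 6.67% of regions had these states. The activator-type genes held 6, of which none was open in every library and 5 in Msx2-KO replicate 2 alone. The latter was the state of 25.2% of regions over the windows of all genes. The 6 other members held 20, of which 9 were open in every library.

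The member promoters shared a high G+C content. RefSeq promoter sequence, 250 bases before to 50 after the start, was matched for 8 of the 10 genes (not for Axin1 and Apc). Its G+C content ran from 63% in Gsk3b to 76.3% in Tcf7, above 69.3% of promoters or more, with a median of 57% over 20143 promoters. The ratio of observed to expected CpG ran from 0.620 in Lef1 to 1.08 in Ctnnb1, where the median was 0.588. Tcf7, weakly open at its start in Msx2-WT and Msx2-KO replicate 2, had 76.3%. Lef1, with no summit past the threshold within 1500 bases of its outermost start in any library, had 67.3%. None of the 8 sequences held the TCF/LEF, homeobox or AP-1 letters, which stood in 7.47%, 6.75% and 7.0% of all promoters, respectively.

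Within 100 bases of the strongest summit, TCF/LEF letters stood in 3 of 54 member regions (5.56%, 95% Wilson interval 1.91 to 15.1), against 6.23% of all 47550 regions. By class they stood in 2 of 12 regions at starts (16.7%, 4.70 to 44.8), at Tcf7 and Axin2, against 2.75% of all start regions, and in 1 of 42 others (2.38%), against 7.37%. Homeobox letters, those that Msx factors and many others bind, stood in 3 regions (5.56%, against 7.34%), at Tcf7l1 +144 kb, Lef1 +104 kb and Gsk3b +116 kb. AP-1 letters stood in 1 region (1.85%, 0.328 to 9.77, against 11.8%), that at Tcf7l1 −5.92 kb. With windows of 250 bases to each side, AP-1 letters stood in 9 member regions (16.7%, against 20.8%). A match describes the letters alone and does not show binding.

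Among 33 other genes of the pathway, 24, 21 and 31 had a promoter peak in Msx2-WT, Msx2-KO replicate 1 and Msx2-KO replicate 2. The shares of all protein-coding genes were 47.1%, 37.9% and 53.7%. A promoter peak in every library was found for 18, against 35.2% of all genes. Genes whose promoter was open in the Msx2-KO pair but not past the threshold in Msx2-WT were the tankyrase gene Tnks2 (13 and 23 tags), the beta-catenin co-activator gene Pygo1 (9 and 11 tags) and the corepressor gene Ctbp2 (6 and 12 tags). Apc2, a relative of Apc, was open in Msx2-WT alone (13 tags), and the corepressor gene Tle2 in no library. Thus 3 of these 33 genes were open in the Msx2-KO pair alone and 1 in Msx2-WT alone, states held by 2.32% and 2.11% of all genes.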

How the data were processed

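Omni-ATAC-seq peak lists of 3 libraries, 1 list each, were used as the authors deposited them, with groups taken from the labels. Per the methods of the study, reads were trimmed with Trimmomatic, aligned to GRCm38 with BWA-MEM and freed of mitochondrial reads, and MACS2 called peaks per library with no shifting model and every duplicate kept; its version is not given in the sources used here. In the deposited fold enrichment of a summit, 1 is added to the tags and to the local background before dividing. The deposited −log10 p and −log10 q follow the caller's Poisson model. The deposited score column follows −log10 p and was not used. The lists reach a p-value of 0.01 although the methods name a q-value of that size, so summits above a −log10 q of 2.0 were kept. Peak names inside both Msx2-KO lists read cKO, and those of Msx2-KO replicate 1 carry a library number unlike its label; the labels were followed.

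Tag numbers were solved from fold and −log10 p, which gave a whole number for 99.9% of summits in Msx2-WT and 99.96% and 99.97% in the Msx2-KO libraries, and the solver was tested on simulated data. Tags include duplicates, so the 95% Poisson and Wilson intervals cover counting error only. Depth was read from the commonest background. Start sites were those of protein-coding transcripts of basic GENCODE M21, and intron and exon numbers those of the principal transcript. Peaks sharing 1 base or more were merged into regions. A region's level used its strongest summit in each library. The 10 members, the lists of 33 pathway genes and of markers, and the letters searched were chosen with earlier results of these data known. All members were described, and pathway genes were named where Msx2-WT differed from both Msx2-KO libraries or no library had a peak. Alternatives covered thresholds, list length, thinning to the shallowest background, window sizes, start choice, overlap, scaling and leaving out a Msx2-KO library. The work used Python 3.11.15 with pandas 2.3.3, numpy 2.4.6, matplotlib 3.10.9 and scipy 1.17.1.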

Additional observations from a re-analysis of the deposited data

How the results depend on the processing

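No alternative turned the order of repressor-type and activator-type density in any library. The cause of the other changes was not tested. With a −log10 q of at least 5, Msx2-KO replicate 1 kept 4 promoter peaks and 7 summits, Msx2-KO replicate 2 kept 24 summits, 7 regions were open in all libraries and 0 in both Msx2-KO libraries alone, 1 promoter was lower in both, and the density difference (repressor-type minus activator-type, per 100 kb) was 1.01 and 1.70 in the Msx2-KO libraries. With every deposited peak, Msx2-WT held 73 summits and Msx2-KO replicate 2 held 83, 3 regions were held only by the Msx2-KO pair and 30 only by Msx2-WT, and the difference in Msx2-WT was 1.86. Lists of equal length left 23 summits in Msx2-KO replicate 2 with a difference of 1.45, and 3 regions in each genotype alone. Thinning left 15 summits and a difference of 1.52 in Msx2-WT and a difference of 0.584 in Msx2-KO replicate 2, with 10 regions open in all libraries, 10 in the Msx2-KO pair only and 2 in Msx2-WT only. With 50% reciprocal overlap 10 regions were open in all libraries and 11 in Msx2-WT alone. Tcf7l1 as the only repressor-type gene gave a difference of 4.40 in Msx2-KO replicate 2, and summits per gene gave 8.5, 6 and 8.5. Tags over background left 0 members lower, and the deposited fold 0 higher, in both Msx2-KO libraries. For the other regions open in all libraries, where these scalings were added after seeing the data, tags over background left 0 lower and 7 higher, and the deposited fold 2 lower. Windows of 250 bases to each side held TCF/LEF and AP-1 letters in 16.7% of regions each. Leaving out either Msx2-KO library gave 8 to 22 regions in Msx2-KO alone, 6 to 13 in Msx2-WT alone and 3 to 5 members higher. Of 134 values under the alternatives, 94 stayed within the limits set and 40 did not. No paired analysis was possible because the groups share 1 replicate number only and no test was run. No promoter level under 0.385 passed the threshold in Msx2-KO replicate 1, against 0.310 and 0.207 in the other libraries, and 1 Msx2-WT library gives no spread for its genotype.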

Other observations

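Below the threshold, the deposited lists held further summits in the windows of Tcf7 and Lef1. With every deposited peak counted, the activator-type density was 6.50 summits per 100 kb in Msx2-WT and 5.96 in Msx2-KO replicate 2, beside repressor-type densities of 8.36 and 9.12. In Msx2-KO replicate 1 the values were 0 and 3.55, so its list held no summit of any listed p-value in either activator-type window.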
